A study of Mus musculus with 111 samples.

Results

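Bmal1 (listed under its older symbol Arntl), Clock, Npas2, Bhlhe40, Bhlhe41, Ciart and Usp2 were followed in RNA-seq libraries of the mouse tuberomammillary nucleus (TMN), the posterior hypothalamic site of the histamine neurons. The members were taken by name, 7 of the 54087 gene rows of each table, though with earlier results of these data known. All mice were C57BL/6 by the labels (the substrain C57BL/6J in the study's methods), male or female young adults on a light-dark cycle, given 1 of 3 adeno-associated viruses (AAVs) in the TMN on both sides. The viruses carried GFP alone, wild-type H3.3, or H3.3(Q5A), a histone whose glutamine 5 is an alanine that cannot take up a monoamine. The histone viruses also expressed GFP, the promoter in the AAV was not given in the sources used here, and cells without virus were not removed from the dissected tissue. Tissue was taken at zeitgeber time (ZT) 0, 4, 8, 12, 16 or 20 h after lights on, and each library is 1 mouse. There were 32 GFP, 39 H3.3 and 39 Q5A libraries, with 4 to 8 in each group of virus and ZT, and GFP and H3.3 together form the 71 controls. By the labels, GFP had 28 libraries in cohort 1 and 4 in cohort 2. H3.3 had 24, 10 and 5 in cohorts 1, 2 and 3, and Q5A had 26, 10 and 3. Virus and cohort were thus not balanced, and the labels do not say what a cohort was.

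The clock of mammalian cells is a loop of transcription and repression. BMAL1 pairs with CLOCK, or with its relative NPAS2, and the pair binds E-boxes, short DNA sites whose canonical letters are CACGTG, to switch on the genes of its own repressors. The DEC proteins encoded by Bhlhe40 and Bhlhe41 bind E-boxes too and repress there, CIART (also called CHRONO) represses the BMAL1-CLOCK pair, and Usp2 is a clock-driven gene for a deubiquitinase. In tissues with a strong clock, Arntl RNA runs in antiphase to the Per genes, while Clock RNA varies little.

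All 7 members are protein-coding genes, and their positions are those of GENCODE on GRCm38. Arntl lies on chromosome 7 at 113207465 to 113314126 (plus strand), Npas2 on chromosome 1 at 39193731 to 39363236 (plus) and Clock on chromosome 5 at 76209868 to 76304792 (minus). Bhlhe40 lies on chromosome 6 at 108660629 to 108666925 (plus), and Bhlhe41 on the same chromosome at 145858243 to 145865558 (minus). Ciart lies on chromosome 3 at 95878503 to 95882251 (minus) and Usp2 on chromosome 9 at 44067021 to 44095627 (plus).

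E-boxes were sought in the RefSeq windows of GRCm38.p6 that run from 250 bases before to 50 bases after each annotated start, since the members include both proteins that bind E-boxes and genes driven through them. Windows matched 6 of the 7 members. The letters CACGTG, which read the same on both strands, stood in 7.15% of all 32851 windows, and the related letters CACGTT, sought on both strands, in 4.68%. Ciart held CACGTG at 3 places and Bhlhe41 at 1, whereas neither motif stood in the windows of Arntl, Clock, Npas2 or Usp2. The 4 sites are shown with 12 bases on either side, 5′ to 3′ on the strand of the gene, with the E-box in capitals. The Ciart sites began 116, 58 and 44 bases before the start, at chr3:95882327-95882356, chr3:95882269-95882298 and chr3:95882255-95882284, and the Bhlhe41 site began 153 bases before the start, at chr6:145865556-145865585.
Ciart, 116 bases before the start: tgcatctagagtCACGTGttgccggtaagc
Ciart, 58 bases before the start: cgcagggggaggCACGTGcagaaccgcacg
Ciart, 44 bases before the start: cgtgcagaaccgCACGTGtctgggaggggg
Bhlhe41, 153 bases before the start: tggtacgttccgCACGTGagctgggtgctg

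The gene rows of these libraries held few reads. The gene rows of a library summed to between 673306 and 3375352 reads (median 1474422), which was 3.49% to 5.63% of its uniquely placed reads. Reads were counted only where they lay on the strand of the gene, as the study's methods state. With a kit in which read 1 is antisense to the RNA, that setting leaves most reads of a gene out. It then admits reads of a transcript from the other strand. The kit was a stranded Illumina mRNA ligation kit, and which case holds was not tested. All levels, orders and rhythms of the members below are those of rows counted with that setting. Exons of Bhlhe41 overlapped those of Gm43909 on the other strand over 1280 bases, 19.0% of its exonic length. Overlaps covered 200 bases of Usp2, 118 of Bhlhe40 and 33 of Arntl, and none was found for Clock, Npas2 or Ciart. None of the overlapping genes had a row under its annotated name, so their own counts were not analysed here. The summed level of Hdc, Slc18a2 and Maob, taken as histamine-neuron markers, was at least 44.5 normalised counts in each library. The sum does not show the level of each marker by itself. Of 4 libraries that stood apart in earlier results of these data, 3 (GFP at ZT12, H3.3 at ZT12 and Q5A at ZT20, all of cohort 1) had 4 striatal marker rows that summed to 612 to 1058 normalised counts, against medians of 45.8 to 51.9 by virus.

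The members were lowly to moderately counted. A normalised count is a count divided by the size factor of its library, a measure of depth. Bhlhe41 averaged 36.7 ± 8.24 normalised counts (SD, n = 110), Clock 29.9 ± 7.28, Usp2 20.1 ± 7.43, Bhlhe40 16 ± 5.32, Ciart 11.7 ± 5.64, Arntl 6.54 ± 3.25 and Npas2 3.58 ± 3.22. A library held a median of 6.5 reads of Arntl and 3 of Npas2, and Npas2 was at 0 reads in 9 libraries and Arntl in 1. The core activator Arntl and the CLOCK relative Npas2 were therefore the least precisely measured members.

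Per kb of exon the order changed. Bhlhe41 was at 5.47 ± 1.23 normalised counts per kb, Ciart at 5.19 ± 2.49, Usp2 at 4.18 ± 1.54, Bhlhe40 at 3.4 ± 1.13, Clock at 2.18 ± 0.53, Arntl at 0.870 ± 0.432 and Npas2 at 0.747 ± 0.672. Neighbours in this order differed by less than the larger of their SDs, except Bhlhe40 from Clock and Clock from Arntl. Clock thus moved from the second place by normalised count to the fifth per kb, since its exons span 13727 bases against 2261 for Ciart.

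The spread between libraries of the same group was set against counting error alone. Within groups of virus and ZT, the SD was 1.17 times that of counting for Clock, 1.26 times for Arntl and Bhlhe40, 1.39 times for Bhlhe41, 1.49 times for Usp2, 1.64 times for Ciart and 1.68 times for Npas2. The spread of Clock was the nearest to counting error.

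**Figure D1:**
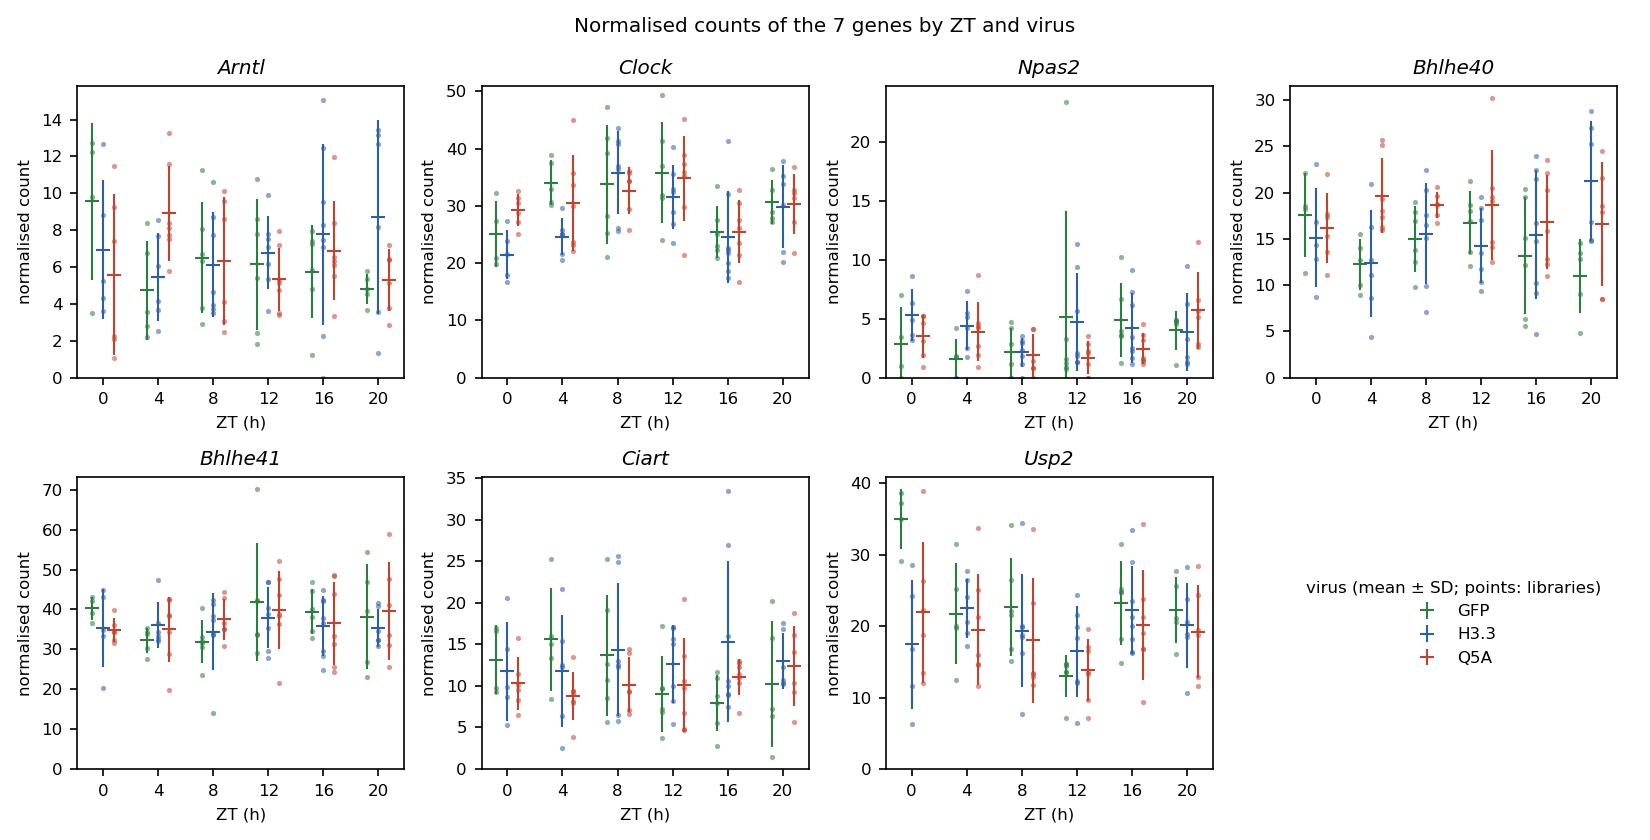
Normalised count (y axis) of each member against ZT in hours (x axis), with a point per library and the mean ± SD per group of GFP, H3.3 and Q5A; axes start at 0 and cut SD bars there. The groups overlap at nearly every ZT, Usp2 of GFP stands at 35.0 ± 4.19 at ZT0, and 1 GFP library gives Npas2 23.4 at ZT12.

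Whether the members varied over the day was tested with JTK_CYCLE, a rank test against cosine templates of 8 to 24 h, whose exact p is multiplied by the 20 templates. A gene was called rhythmic at an adjusted p under 0.05, which corrects for templates and not for the number of genes, so the Benjamini-Hochberg q over all genes is given beside it. In the controls 2 of 7 members were called, Clock and Usp2, where 13.8% of the 18066 genes tested were called. In Q5A 1 member was called, Npas2, where 4.13% of the genes were. Within the single viruses 1 member was called in GFP (Usp2, 11.2% of genes) and 1 in H3.3 (Clock, 6.48% of genes). Arntl, Bhlhe40, Bhlhe41 and Ciart were called in none of these 4 sets, with adjusted p of 0.297 or more.

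Clock was the member with the clearest variation by ZT. In the controls it ranged over 16.7 to 32.2 normalised counts at ZT0 (median 21.7, n = 9), 20.6 to 38.9 at ZT4 (29.7, n = 11) and 21.1 to 47.2 at ZT8 (36.9, n = 13). It ranged over 23.5 to 49.3 at ZT12 (32.5, n = 13), 17.5 to 41.3 at ZT16 (22.5, n = 14) and 20.2 to 37.9 at ZT20 (30.1, n = 11). Control libraries were thus low at ZT0 and again at ZT16 and high at ZT8 and ZT12, with ranges that overlapped throughout. The highest mean, 34.9 ± 8.51 at ZT8, was 1.51 times the lowest, 23.1 ± 5.05 at ZT0.

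The best template for Clock in the controls had a period of 16 h with its peak at ZT8 (adjusted p = 0.000106, q = 0.0159). It was the only call of a member in any set with q under 0.05. A 16 h template does not repeat at the same ZT each day, and 6 ZT of 1 day cannot show whether it recurs. Within cohort 1, the largest cohort, the adjusted p was 0.0188, and without the 4 libraries that stood apart it was 8.51e-05. With templates of 24 h alone it was 0.0274. In edgeR, ZT as a factor gave an adjusted p of 0.0208 where 5.50% of genes passed, and a 24 h cosine gave 0.0563 where 11% passed, so the call was lost with that curve. The H3.3 libraries had the same 16 h template (adjusted p = 0.00257, q = 0.355), with means from 21.5 ± 4.31 at ZT0 to 35.8 ± 7.24 at ZT8. Clock in H3.3 was not called within cohort 1 (adjusted p = 0.676), nor in edgeR by ZT as a factor (adjusted p = 0.194, 0.537% of genes passing) or by the cosine (adjusted p = 0.313, 0.783% passing).

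In Q5A Clock followed a like order over ZT and was not called. Its values ran over 25.1 to 32.5 normalised counts at ZT0 (median 29.6, n = 6), 22.1 to 45.1 at ZT4 (30.1, n = 7), 25.7 to 36.0 at ZT8 (34.4, n = 6), 21.5 to 45.1 at ZT12 (36.0, n = 7), 16.7 to 32.7 at ZT16 (26.1, n = 7) and 21.8 to 36.9 at ZT20 (31.8, n = 6). The 16 h template with its peak at ZT8 was again the best (adjusted p = 0.564). Clock was lowest at ZT16 and highest at ZT12, and at ZT0 the Q5A mean of 29.2 ± 2.80 stood above the control mean of 23.1 ± 5.05, with overlapping ranges (log2 difference 0.34 ± 0.18 SE, edgeR adjusted p = 0.888). Neither edgeR test of a difference in rhythm between Q5A and controls passed for Clock, by the 24 h curve (adjusted p = 0.831) or by ZT as a factor (adjusted p = 0.885).

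Usp2 was highest at the start of the light phase in GFP. The 4 GFP libraries at ZT0 held 37.2, 38.6, 35.0 and 29.1 normalised counts, while the 6 at ZT12 held 7.16 to 14.8 with a median of 14.0. The mean at ZT0, 35.0 ± 4.19, was the highest over the ZT and was 2.68 times the lowest, 13.0 ± 2.92 at ZT12. The 24 h template with its peak at ZT0 was called in GFP (adjusted p = 0.00184, q = 0.153). In edgeR the GFP libraries passed by ZT as a factor (adjusted p = 0.0157, 11.9% of genes passing) and by the cosine (adjusted p = 0.0488, 5.70% passing).

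In H3.3 and Q5A the mean of Usp2 was also lowest at ZT12, while the libraries at ZT0 were spread more widely than in GFP, from 12 to 38.9 in Q5A. The 5 H3.3 libraries at ZT0 held 24.2, 6.35, 16.8, 11.6 and 28.5 normalised counts, all below the 4 GFP libraries, and 1.53% of genes had no overlap between H3.3 and GFP at that ZT. The difference was -0.94 ± 0.33 on the log2 scale and did not pass (edgeR adjusted p = 0.700). Means of Usp2 at ZT12 were 16.5 ± 6.33 in H3.3 and 13.9 ± 4.34 in Q5A. The call in the pooled controls (24 h, peak ZT0, adjusted p = 0.0245, q = 0.246) was lost within cohort 1 (adjusted p = 0.105), without the 4 libraries that stood apart (0.0597), without the libraries numbered 1 of cohort 1 (0.282) and without those numbered 3 (0.103). A difference in the 24 h rhythm of Usp2 between H3.3 and GFP was tested directly and did not pass (edgeR adjusted p = 0.465), nor did that between Q5A and controls (adjusted p = 0.967).

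**Figure D2:**
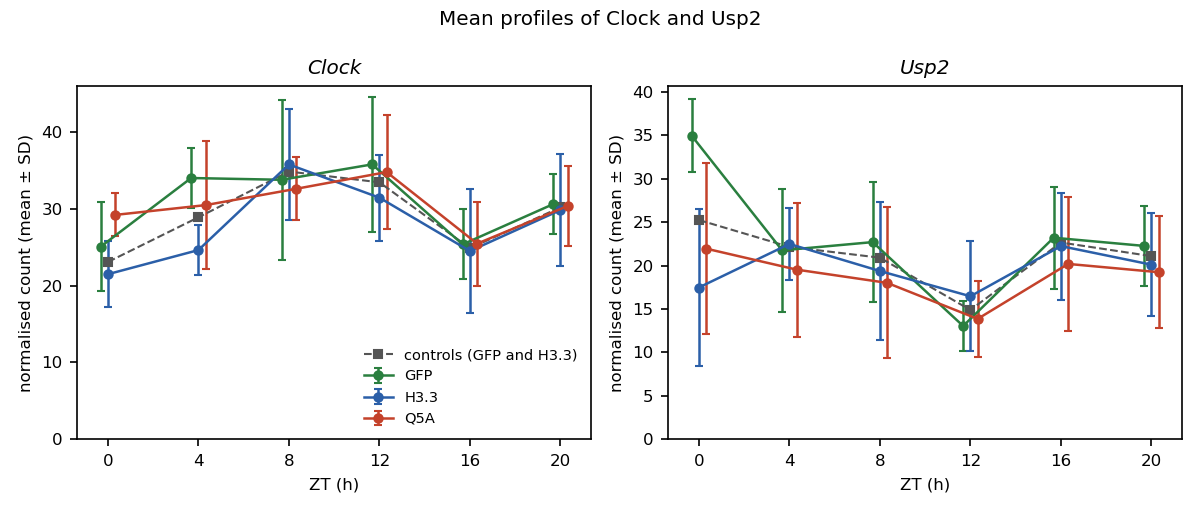
Mean normalised count ± SD (y axis) of Clock and Usp2 against ZT in hours (x axis) in GFP, H3.3 and Q5A, with the mean of the pooled controls dashed. Clock is low at ZT16 in each virus, and Usp2 is lowest at ZT12 in each virus, with GFP at 35.0 at ZT0.

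The Npas2 call in Q5A rested on few reads. Npas2 averaged 5.72 ± 3.25 normalised counts at ZT20, 3.52 ± 1.83 at ZT0 and 3.91 ± 2.54 at ZT4, and 1.89 ± 1.80 at ZT8, 1.70 ± 1.37 at ZT12 and 2.45 ± 1.33 at ZT16. The 6 libraries at ZT20 ran from 2.58 to 11.5, and the highest of them was one of the libraries with raised striatal markers. The ranges at ZT20 and ZT12 overlapped, since the latter ran from 0 to 3.54. The best template had a period of 20 h with its peak at ZT0 (adjusted p = 0.0149, q = 0.909), and the call was lost without the cohort 1 libraries numbered 4 (adjusted p = 0.0603) or 5 (0.0544). Without the 4 libraries that stood apart it was kept (adjusted p = 0.0309), and within cohort 1 the adjusted p was 0.0459 with another template, of 16 h. In the controls Npas2 was not called (adjusted p = 0.470). In edgeR Npas2 did not pass the filter on low counts in Q5A alone, where 0.188% of genes passed by ZT as a factor and 0.239% by the cosine, with none of the 6 other members among them.

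Arntl, the gene whose loss stops the clock, showed no rhythm that could be told from its error at a median of 6.5 reads. The study reports Arntl as rhythmic in TMN without virus, in libraries that were not used here. Control means ran from 5.13 ± 2.42 normalised counts at ZT4 to 8.11 ± 3.98 at ZT0, and Q5A means from 5.29 ± 1.70 at ZT20 to 8.91 ± 2.59 at ZT4. The order of the ZT thus differed between the viruses, but the groups overlapped at each ZT. The 24 h amplitude on the log2(normalised count + 1) scale was 0.07 ± 0.13 (SE) in the controls and 0.15 ± 0.15 in Q5A, each no larger than about its own error. In GFP alone the means ran from 4.74 ± 2.68 at ZT4 to 9.56 ± 4.24 at ZT0, 2.02 times. In H3.3 alone they ran from 5.45 ± 2.38 at ZT4 to 8.72 ± 5.27 at ZT20.

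The repressors showed no called rhythm. Bhlhe41 had the smallest range over the day of any member in the controls, from 33.3 ± 7.74 normalised counts at ZT8 to 39.8 ± 11.2 at ZT12, a ratio of 1.2. Ciart, whose start window holds 3 E-boxes, ran from 11 ± 4.81 at ZT12 to 14.0 ± 7.35 at ZT8 in the controls, and from 7.95 ± 3.37 at ZT16 to 15.6 ± 6.16 at ZT4 in GFP alone. In H3.3 Ciart was instead highest at ZT16, at 15.3 ± 9.68. The 24 h rhythm of Ciart in H3.3 and GFP was compared directly and did not pass (edgeR unadjusted p = 0.0329, adjusted p = 0.345).

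**Figure D3:**
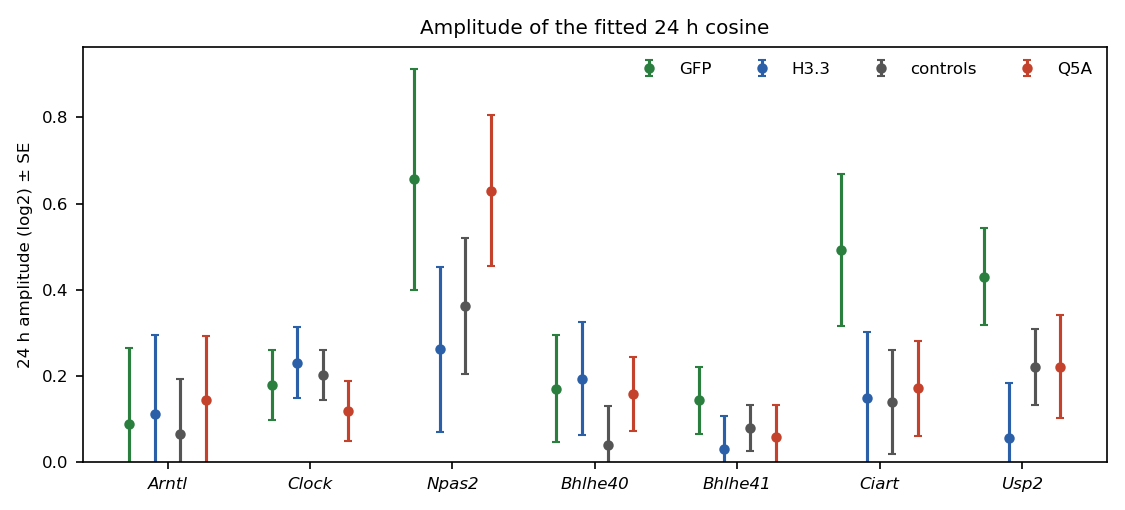
Amplitude ± SE of a 24 h cosine fitted to log2(normalised count + 1) (y axis) for each member (x axis) in GFP, H3.3, controls and Q5A; bars are cut at 0. The largest amplitudes are those of the sparsely counted Npas2, at 0.66 ± 0.26 in GFP and 0.63 ± 0.17 in Q5A. Ciart of GFP stands at 0.49 ± 0.18 and Usp2 of GFP at 0.43 ± 0.11, while Usp2 is at 0.22 ± 0.09 in the controls and 0.22 ± 0.12 in Q5A. Clock of the controls stands at 0.20 ± 0.06, and the Arntl amplitudes lie within about 1 SE of 0.

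Levels over all ZT were then compared between viruses with edgeR, with ZT in the model and an adjusted p under 0.01 as the threshold. No member passed between Q5A and controls (0 of 7, with 0.0151% of 13254 genes called, and 0 members and 0 genes called by DESeq2). There 1 member had an unadjusted p under 0.05 in edgeR, beside 5.42% of genes. No member passed between H3.3 and GFP (0 of 7, with 0% of 13264 genes called, and 0 members and 0 genes called by DESeq2). There 0 members had an unadjusted p under 0.05 in edgeR, beside 3.25% of genes. The median log2 difference of the 7 members was -0.04 between Q5A and controls, against 0.01 for all genes tested, and 0.13 between H3.3 and GFP, against 0.01.

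In the edgeR fit above, Bhlhe40, the gene of the repressor DEC1, came nearest to a level difference. It held 8.46 to 30.2 normalised counts in Q5A with a median of 17.9, and 4.40 to 28.8 in the controls with a median of 14.8, so the groups overlapped widely. The means were 17.8 ± 4.70 and 15.0 ± 5.42 (SD, n = 39 and 71), and the log2 difference was 0.26 ± 0.10 (SE; unadjusted p = 0.0109, edgeR adjusted p = 0.839). The Q5A mean was the higher at 5 of 6 ZT by normalised count, while the edgeR difference was above 0 at 4 ZT and below 0 at 2. At ZT4 the 7 Q5A libraries ran from 15.9 to 25.7 and the 11 controls from 4.40 to 20.9, a log2 difference of 0.73 ± 0.24 (edgeR adjusted p = 0.420). Over the 13 settings run, among them cohort 1 alone, the difference over all ZT stayed between 0.19 and 0.32, and no setting called it.

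In that fit the other members differed less relative to their errors. The log2 difference between Q5A and controls was -0.23 (95% interval -0.49 to 0.03) for Ciart, -0.15 (-0.35 to 0.04) for Usp2 and -0.26 (-0.71 to 0.19) for Npas2. It was 0.07 (-0.06 to 0.19) for Clock, 0.03 (-0.10 to 0.16) for Bhlhe41 and -0.04 (-0.33 to 0.26) for Arntl. The intervals leave room for changes of different size: narrow for Clock and Bhlhe41, wide for Npas2. Usp2 was lower in Q5A than in controls at 6 of 6 ZT, with single log2 differences from -0.23 to -0.05. Over the 13 settings the Usp2 difference over all ZT ran from -0.37 to -0.11, and no setting called it. The lowest adjusted p of Usp2 over the settings was below that of Bhlhe40.

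**Figure D4:**
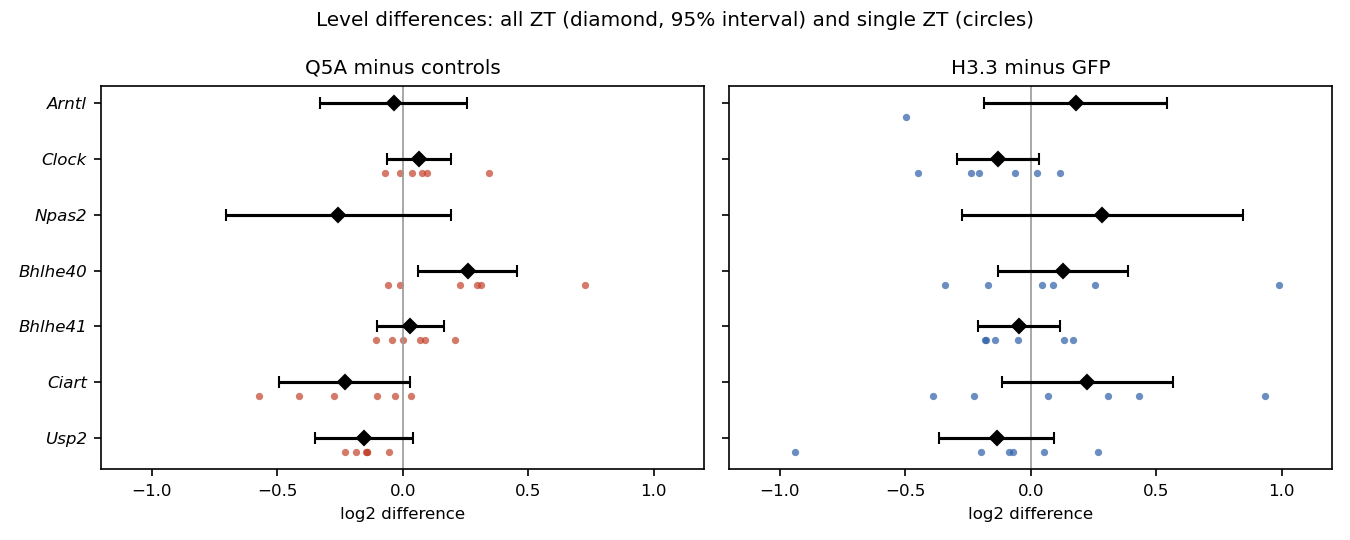
Log2 difference (x axis) of each member (y axis) for Q5A minus controls and for H3.3 minus GFP, with the estimate over all ZT as a diamond with its 95% interval and the single ZT as circles. Intervals cross 0 for all genes except Bhlhe40 in Q5A minus controls, at 0.06 to 0.45, and Arntl and Npas2 have few or no circles because of the filter on low counts.

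At single ZT no member passed in edgeR in either comparison, where 0% of the genes tested passed at each of the 6 ZT. DESeq2 called 6 of 59541 gene tests between Q5A and controls. Between H3.3 and GFP it called 47 of 56187, of which 44 were at ZT12. Between Q5A and controls 30 tests of members could be made, and 0 were called by DESeq2. In edgeR 1 of the 30 had an unadjusted p under 0.05, beside 4884 of the 59541 gene tests. Between H3.3 and GFP 31 could be made, and 0 were called by DESeq2. In edgeR 3 of the 31 had an unadjusted p under 0.05, beside 5576 of the 56187 gene tests, a similar share. Those 3 were Usp2 at ZT0, Ciart at ZT16 (7.95 ± 3.37 in GFP, n = 6, and 15.3 ± 9.68 in H3.3, n = 8; edgeR adjusted p = 1) and Bhlhe40 at ZT20. Bhlhe40 at ZT20 held 9.07, 14.6, 12.9, 13.5 and 4.83 normalised counts in the 5 GFP libraries and 14.7 to 28.8 in the 6 H3.3 libraries, which did not overlap, as for 0.814% of genes (log2 difference 0.99 ± 0.35, edgeR adjusted p = 0.333). Clock at ZT4 did not overlap either, with GFP at 37.5, 38.9, 30.8, 32.9 and 30.2 and H3.3 at 20.6 to 29.7, as for 0.271% of genes (log2 difference -0.45 ± 0.21, edgeR adjusted p = 1). These 2 control viruses were pooled in the comparison with Q5A.

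Differences in rhythm were tested over all genes as well, and no member passed. Between Q5A and controls 0.106% of genes passed by the 24 h curve and 0.113% by ZT as a factor, and 0 of 7 members had an unadjusted p under 0.05 by either, with adjusted p from 0.395 for Npas2 to 0.967 for Usp2 by the curve. Between H3.3 and GFP 0.0151% of genes passed by the 24 h curve and 0.128% by ZT as a factor, and Ciart was the 1 member with an unadjusted p under 0.05, by the curve. DESeq2 called 0 members in either comparison by the curve, where it called 11 of 13254 and 2 of 13264 genes. By the curve in edgeR, 14.9% of genes had an unadjusted p under 0.05 between Q5A and controls, and 13.3% between H3.3 and GFP. By ZT as a factor the shares were 7.78% and 18.4%. The loss of the Clock and Usp2 calls in Q5A is thus not shown as a difference from the controls.

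The other clock genes form the rest of the loop and its outputs, in a list of 20 of which 18 were tested. In the controls 8 of 18 were called, 3 of them at q under 0.05, namely the repressor gene Per1, Nr1d1 for REV-ERBα, which represses Arntl, and the output gene Dbp. The mean of Per1 was 7.51 normalised counts at ZT0 and 17.0 at ZT12 (adjusted p = 0.000223), and that of Dbp was 23.3 and 38.2 (adjusted p = 0.000247). In Q5A 1 of 18 was called, Dbp (adjusted p = 0.00223), against 8 in GFP and 1, Hlf, in H3.3. The Nr1d1 row averaged 2661 normalised counts over all 110 libraries against 12.2 for Nr1d2, and its exons overlap those of Thra on the other strand over 263 bases, while 539 bases of Dbp overlap Sphk2 and no exon of Per1 overlaps a gene on the other strand. Of 11 cofactors of the BMAL1-CLOCK pair and of the histone marks at its targets, 3 were called in the controls (Ncor1, Ddb1 and Thrap3, none at q under 0.05), while GFP had 3, H3.3 had 2 and Q5A had 0 called. Over all 18066 genes tested, 13.8% were called in the controls, 11.2% in GFP, 6.48% in H3.3 and 4.13% in Q5A. The controls held 71 libraries and Q5A 39, so the counts of calls rest on unlike numbers of libraries.

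Some cell-type markers were called over the day as well, beside 13.8% of all genes in the controls and 4.13% in Q5A. Of the oligodendrocyte markers 4 of 5 were called rhythmic in the controls and 0 in Q5A, and the median of their sum in the controls ran from 1071 normalised counts at ZT8 to 2616 at ZT0. Of the histamine-neuron markers 2 of 3 were called in the controls and 0 in Q5A. The other lists had at most 1 marker called in the controls, namely 1 of 4 for neurons, 1 of 5 each for astrocytes and microglia, 1 of 3 each for endothelium and pituitary, 1 of 4 for striatum and 0 of 1 for ependyma, and 0 in Q5A. Clock was highest and Usp2 intermediate at ZT8, where the oligodendrocyte sum was lowest. Over 63 pairs of a member and a marker list, the correlation of their deviations from group means over 110 libraries ran from -0.38 (Bhlhe41 with oligodendrocyte) to 0.39 (Arntl with endothelium). The part of cell makeup in the member profiles was not tested, and in bulk tissue fewer cells of a type and less RNA per cell cannot be told apart.

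The genes most like a member over the 18 group means were sought among 6193 genes with a mean of at least 20 normalised counts, for the 3 members above that level. Clock was most like Nudt19, Pptc7 and Cebpg (Pearson r = 0.75, 0.75 and 0.74), Bhlhe41 most like Arglu1, Hpca and Psme3 (0.80, 0.76 and 0.75), and Usp2 most like Kif22 (0.81) and 2 rows listed by clone names (0.83 and 0.80). The means share their libraries, and none of the genes so found is on the lists of clock genes or cofactors.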

How the data were processed

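RNA-seq libraries of TMN tissue from mice given AAV-GFP, AAV-H3.3 or AAV-H3.3(Q5A) were analysed as deposited counts. Per the labels and the study's methods, the authors made the libraries with a stranded Illumina mRNA ligation kit, aligned reads with STAR 2.7.11b to GRCm38 and used HTSeq 2.0.5 for counts of reads in exons by gene name (union mode, strand option yes). The 5 summary rows stayed out of all totals. Of 111 libraries, replicates 2 and 3 of Q5A ZT4 in cohort 2 did not differ, with a chi-square per gene of 0.0 between their counts. Among the 296 pairs compared, the next lowest value was 1.87. These replicates were counted as 1 library, leaving 110. A further 18 files tied to no sample were not used here.

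Groups came from the labels. Each count was divided by the median-of-ratios size factor of its library, from 9428 genes, to give a normalised count. JTK_CYCLE was reimplemented in Python 3.11.15 (numpy 2.4.6, pandas 2.3.3, scipy 1.17.1) with 20 templates and an exact two-sided null, for genes with a mean normalised count of at least 1. The authors used JTK_CYCLE and DESeq2 1.44.0. Level and rhythm differences used the edgeR 4.0.16 quasi-likelihood F test in R 4.3.3 with TMM, filterByExpr (minimum count 10, minimum total 15) and Benjamini-Hochberg adjustment over all genes, at thresholds of 0.01 for levels and 0.05 for rhythms. All p-values of rhythm in edgeR are adjusted unless named otherwise. DESeq2 1.42.0 was an alternative, as were other normalization, no filter, 24 h templates, cohort 1 only, a cohort covariate, a replicate block and leaving out libraries. Intervals of 95% are the estimate ± 1.96 SE. Motifs were searched by script in RefSeq windows, and positions are those of GENCODE M21. Procedures were tested on simulated data.

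The members and gene lists, and the 4 libraries left out in an alternative, were chosen with earlier results of these data known. Named genes were the members, opposite-strand neighbours, the 3 most alike genes and both lists. A test of ZT as a factor for rhythm differences was added after seeing the data.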

Additional observations from a re-analysis of the deposited data

Results flagged for a closer look

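In groups of 4 to 8 libraries, a library was singled out where its gap to the nearest other library was large for the range of the group (Dixon's criterion at 95%). Over 126 groups of a member, virus and ZT, 7 libraries met it, and chance alone singles out about 1 in 20 groups. In GFP at ZT12, replicate 3 of cohort 1 held Npas2 at 23.4 normalised counts (19 reads), against 0.717 to 3.26 in the 5 others, and Bhlhe41 at 70.2, against 29.0 to 42.4. Its 4 striatal marker rows summed to 612 normalised counts. In GFP at ZT20, replicate 3 of cohort 1 held Npas2 at 1.07 (1 read), against 4.53 to 4.86.

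Bhlhe41 stood at 47.3 in replicate 3 of cohort 1 in H3.3 at ZT4, against 32.0 to 36.5, and at 14.0 in replicate 1 of cohort 3 in H3.3 at ZT8, against 33.7 to 42.4. Ciart stood at 6.71 in replicate 1 of cohort 2 in Q5A at ZT16, against 10.3 to 13.0. Usp2 stood at 7.16 in replicate 1 of cohort 1 in GFP at ZT12, against 13.6 to 14.8. The causes were not tested.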

How the results depend on the processing

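The count of members called rhythmic in the controls, 2, was 1 by Benjamini-Hochberg q, in cohort 1 alone, without the 4 libraries that stood apart and by edgeR with ZT as a factor, and 0 by the edgeR cosine; leaving out 1 replicate number at a time gave 1 to 2. In Q5A the 1 call became 0 by q and by both edgeR tests, and 0 to 1 when a replicate number was left out. In GFP the 1 call became 0 by q. In H3.3 the 1 call became 0 by q, with 24 h templates, in cohort 1 alone and by both edgeR tests. Counts of members stayed within 1.5 times the reported count in 108 cases and moved further in 22. A count of 0 that stayed at 0 was scored as unchanged. No alternative called a member for a level or rhythm difference between viruses, so all of those counts were scored that way. The 22 that moved were thus all counts of members called rhythmic. Replicate numbers did not pair the samples: over 91 pairs of the same ZT, cohort and number, the median correlation of deviations was 0.05, with 40 pairs over 0.1, against 0.03 for 281 pairs of other numbers. With the replicate block in the edgeR cosine, the members called were 1 in the controls (Clock, adjusted p = 0.0264), and 0 in each of the single viruses, and the block called 0 members in the comparisons between viruses.

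Of the log2 differences over all ZT, those near 0 changed sign. Arntl between Q5A and controls was 0.089 in cohort 1 alone and ran from -0.15 to 0.013 when a replicate number was left out, above 0 without replicate 1 or 3. Bhlhe41 between Q5A and controls was -0.0056 in cohort 1 alone and ran from -0.0019 to 0.069 when a replicate number was left out, below 0 without replicate 2, and between H3.3 and GFP it was 0.022 with cohort as a covariate and 0.047 with the replicate block. The causes were not tested. Planned tests of the genes whose exons overlap those of a member on the opposite strand gave no value, because none of them had a row under its annotated name. Low counts limit Arntl and Npas2 most, and edgeR tested Arntl at 1 single ZT and Npas2 at none.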

Other observations

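Between members, the correlation of deviations from group means over the 110 libraries ran from -0.24 for Arntl with Usp2 to 0.28 for Clock with Npas2, over 21 pairs that share library depth. The activator pair Arntl and Clock had r = -0.08, and the repressor pair Bhlhe40 and Bhlhe41 had r = 0.01. These are descriptions in sparse counts.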
